A study of Rattus norvegicus with 6 samples.

Results

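miR-148a-3p, miR-148b-3p and miR-152-3p are the 3 mature miRNAs of the family of miR-148 and miR-152, which share 1 seed. They are 3 of the 763 miRNAs listed in small RNA libraries of exosomes from rat mesenchymal stem cells (RBMSC, wild type), cells that can form bone, cartilage and fat. The libraries compare exosomes with and without pretreatment of the cells with nicorandil, a vasodilator that acts as a nitrate and on potassium channels. There were 3 libraries from untreated cells (no treatment) and 3 from cells given 200 µM nicorandil for 24 h. All 6 libraries came from the same cell line and genotype, and exosomes were collected from the culture supernatant with an isolation reagent. Nothing in the labels says that replicate libraries were made from separate cultures, so p-values measure the spread between these libraries, which may be technical.

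miR-148a-3p was chosen by its change in this very comparison, as the firmest rise with nicorandil. In the fit used here its rise was the largest against its error. Its difference between the groups is therefore given below as a description without a test. miR-148b-3p and miR-152-3p were added for their seed and not for their own values, and they were tested. Members were found by exact name, with the species prefix removed.

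A miRNA pairs with its target messenger RNAs mainly through its seed, bases 2 to 8 from the 5′ end, and represses them by blocking translation and promoting decay. miRNAs with the same seed are therefore predicted to share many targets. miR-148a is known as an abundant miRNA of liver and of milk vesicles. The family is known to target the DNA methyltransferase DNMT1, and miR-148a also targets the LDL receptor and promotes fat cell formation.

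The sequences show how closely the members are related, with the seed in capitals. They are the mature RefSeq sequences of the rat assembly GRCr8, which held 686 of the 763 listed names.

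miR-148a-3p: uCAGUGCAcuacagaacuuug

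miR-148b-3p: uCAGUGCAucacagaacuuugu

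miR-152-3p: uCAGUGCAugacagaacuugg

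Positions are counted from 1 at the 5′ end. Over the 21 bases that all 3 have, miR-148a-3p and miR-148b-3p differ at 2 positions, by C9U and U10C. miR-148a-3p and miR-152-3p differ at 3, by C9U, U10G and U20G. miR-148b-3p and miR-152-3p differ at 2, by C10G and U20G. The seed is the same in all 3, and the differences lie just 3′ of it and near the 3′ end. No other listed miRNA with a sequence shared the seed, or bases 2 to 7 of it. The sources used here do not state how mismatches were treated when reads were assigned, so a read of 1 member could in principle be counted under another. Outside the family the nearest listed sequences had 8 mismatches to a member, over 18 or 21 bases. Sequences were set side by side from base 1 without gaps, so shifted matches were not counted.

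The same 7 letters stood at another position in 9 listed miRNAs, of which 3 had a read. They are shown because a shifted copy of these letters is a different seed. miR-130a-3p starts with them, and miR-139-5p holds them at bases 5 to 11 (capitals).

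miR-130a-3p: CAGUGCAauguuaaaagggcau

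miR-139-5p: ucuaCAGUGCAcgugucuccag

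miR-130a-3p had 1 read over the untreated and 7 over the nicorandil libraries, too few to be tested. miR-139-5p had 5 and 35 reads and did not pass, at a limma adjusted p of 0.574 for a log2 fold change of 0.74 (SE 0.64). miR-106b-5p, the third, had 0 and 1 read.

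The members are made from separate genes. In GRCr8, mature miR-148a-3p lies at chr4:81664447-81664467 on the minus strand, outside any other annotated gene. miR-148b-3p lies at chr7:136299930-136299951 on the plus strand, within the span of Copz1, a coatomer subunit gene. miR-152-3p lies at chr10:82329435-82329455 on the plus strand, within the span of its paralogue Copz2. Whether these are introns was not analysed here. Each hairpin has a gene of the NFE2 transcription factor family among its 3 nearest protein-coding genes: Nfe2l3 at miR-148a, Nfe2 at miR-148b and Nfe2l1 at miR-152. The nearest other annotated miRNA genes on these chromosomes are Mir196b, Mir615 and Mir10a, and none lies within 10000 bases.

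Values below are the authors' normalized signal, in which each library's reads were adjusted to 1 common library size. The reads behind them could be recovered exactly. The untreated libraries held 2212 to 2338 miRNA reads and the nicorandil libraries 8426 to 16628, so depth differed 6.11-fold between the groups (6774 and 41378 reads in all). Depth and treatment cannot be told apart in this design. Reads of nicorandil replicate 3 differed most from the other 2 of its group (chi-square per degree of freedom 5.15 and 5.39, against 2.37 between replicates 1 and 2). Untreated replicates 1 and 2 differed by less than the sampling noise (chi-square per degree of freedom 0.932, p = 0.617 for the reads of these 2 libraries). Replicates 1 and 3 differed by slightly more than it (1.18), short of the threshold (chi-square p = 0.174 for these reads), and replicates 2 and 3 passed it (1.47, chi-square p = 0.0121). At this depth the untreated libraries were kept as 3. With replicates 1 and 2 counted as 1 sample the log2 fold changes of miR-148a-3p, miR-148b-3p and miR-152-3p were 1.07, 0.69 and -0.25, an alternative chosen after seeing the data.

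The family was dominated by 1 member in all 6 libraries. miR-148a-3p was the second most abundant miRNA in each library by reads, behind miR-143-3p. miR-152-3p was ranked between 41 and 63, and miR-148b-3p between 52 and 86. Each read stands for a whole mature miRNA and the members are 21 or 22 bases long, so levels were compared without a length correction. Of the family's reads, miR-148a-3p took 95.2%, 95.8% and 96.5% without treatment, and 97.2%, 97.9% and 98.5% after nicorandil. In bulk exosome RNA, more vesicles that carry a miRNA and more copies per vesicle cannot be told apart.

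miR-148a-3p had signals of 425.4, 449.1 and 512.5 in the untreated libraries and 943.3, 1029 and 1017 in the nicorandil libraries. The lowest nicorandil value was well above the highest untreated value. The means were 462 ± 45.0 and 996 ± 46.3 (SD, n = 3), a log2 fold change of 1.11 with an SE of 0.11 on the log2(signal + 1) scale. These values chose the miRNA and carry no test here. The next 2 rises by fold change over error in the fit used here were miR-125a-5p, at 1.27 with an SE of 0.20, and miR-99a-5p, at 0.88 with an SE of 0.15. Among the 121 miRNAs with a mean signal of at least 1, the fold change of miR-148a-3p was the 15th largest. Each miRNA above it had a larger error relative to its change. The median over these 121 was 0.23.

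As reads, miR-148a-3p had 220, 207 and 246 without treatment, and 2518, 2596 and 1319 after nicorandil. These were 9.89%, 9.36% and 10.5% of all miRNA reads in the untreated libraries, and 15.1%, 15.9% and 15.7% in the nicorandil libraries. The 95% Wilson interval reached from 9.34% to 11.8% for the highest untreated share, and from 14.6% to 15.7% for the lowest nicorandil share, which gives the precision of each share and is no test of the difference. Intervals treat reads as independent and cover counting error at most, since reads amplified by PCR may be copies of the same molecule. The mean share was 9.92% ± 0.583 without and 15.6% ± 0.387 with nicorandil (SD, n = 3). The size of the difference depended on the scale, at 0.65 on the log2 scale with library totals and 0.88 with median-of-ratios scaling. Library totals moved the median of all 121 miRNAs by -0.35 and median-of-ratios scaling by -0.13. Relative to the median on each scale the miRNA was 0.88 higher on the authors' scale and 0.77 higher on both other scales. Without nicorandil replicate 3 the log2 fold change was 1.09.

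**Figure D1:**
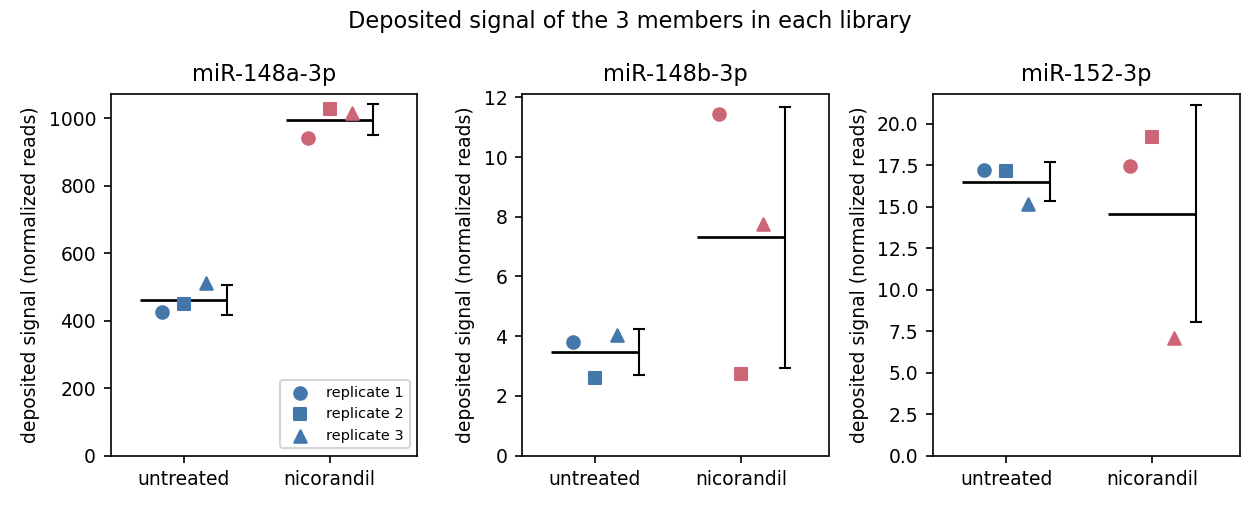
Authors' normalized signal (y axis, normalized reads, separate scale in each panel) of the 3 members in untreated (blue) and nicorandil (red) libraries, with 1 point per library, the mean as a line and the SD as a bar (n = 3). The groups are apart for miR-148a-3p and overlap for miR-148b-3p and miR-152-3p.

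miR-148b-3p was the scarcest member and was not called. Its signal was 3.81, 2.60 and 4.04 without treatment, and 11.4, 2.74 and 7.74 after nicorandil. Nicorandil replicates 1 and 3 lay above all untreated values, while replicate 2 lay among them. The means were 3.48 ± 0.774 and 7.30 ± 4.37 (SD, n = 3). The log2 fold change was 0.74 with an SE of 0.56, a 95% interval of -0.44 to 1.92 and a limma adjusted p of 0.468. The interval holds both no change and the change of miR-148a-3p, so this result does not show that the relatives behave alike or differently.

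Few reads stand behind miR-148b-3p. It had 2, 1 and 2 reads in the untreated libraries and 27, 10 and 10 in the nicorandil libraries. Pooled by group, 5 against 47 reads gave a ratio of 2.11 after TMM scaling, with a conditional exact 95% interval of 0.844 to 6.81 for counting error only, and of 1.54 (0.615 to 4.96) by library totals. As a share of each library this was 0.0899%, 0.0452% and 0.0855% without treatment, and 0.162%, 0.0613% and 0.119% after nicorandil. The untreated shares lie below what 3 reads make up there, 0.128% to 0.136%. Within the family it took 0.704% ± 0.213 of the reads without and 0.722% ± 0.333 with nicorandil (SD, n = 3), a difference smaller than the spread of the libraries. Leaving out nicorandil replicate 1 brought its log2 fold change to 0.37 and leaving out replicate 2 to 1.23 (limma adjusted p = 0.847 and 0.158).

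miR-152-3p was at about the same signal in 5 of the 6 libraries and was not called. Its values were 17.2, 17.2 and 15.2 without treatment, and 17.4, 19.2 and 7.10 after nicorandil. Only nicorandil replicate 3 lay below the others. The means were 16.5 ± 1.19 and 14.6 ± 6.55 (SD, n = 3), a log2 fold change of -0.28 with an SE of 0.36, a 95% interval of -1.04 to 0.49 and a limma adjusted p of 0.733. Without nicorandil replicate 3 the sign turned, to 0.14 (limma adjusted p = 0.81). Whether its change differs from that of miR-148a-3p was not tested, because miR-148a-3p had been chosen for its change.

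By reads miR-152-3p had 9, 8 and 7 without treatment, and 45, 46 and 10 after nicorandil. Its library share was 0.405%, 0.362% and 0.299% without treatment, against 0.271%, 0.282% and 0.119% after nicorandil. On this scale the groups did not overlap, with all 3 nicorandil shares lower, whereas on the authors' scale they did. Of the 121 tested miRNAs, 30.6% had no overlap of the groups by share, and 28.1% had none by signal. The Wilson intervals were wide, from 0.145% to 0.617% for the lowest untreated share and from 0.211% to 0.376% for the highest nicorandil share. With library totals the log2 fold change was -0.70 (limma adjusted p = 0.326). Pooled by group, 24 against 101 reads gave a ratio of 0.946 after TMM scaling (conditional exact 95% interval 0.601 to 1.54) and 0.689 by library totals (0.438 to 1.12).

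Within the family, where no scale between libraries is needed, miR-152-3p took 3.90%, 3.70% and 2.75% of the reads without treatment, and 1.74%, 1.73% and 0.747% after nicorandil. All 3 nicorandil shares were below all 3 untreated ones. There were 24.4, 25.9 and 35.1 reads of miR-148a-3p per read of miR-152-3p in the untreated libraries, and 56.0, 56.4 and 132 in the nicorandil libraries. This ratio holds miR-148a-3p, whose rise chose the family, and is a description with no test.

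**Figure D2:**
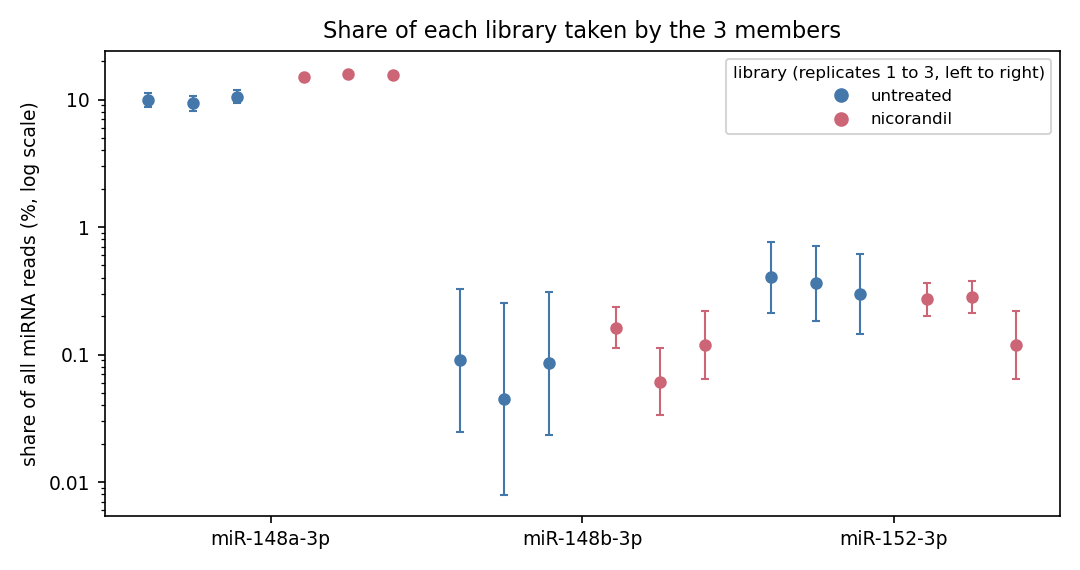
Share of all miRNA reads (y axis, %, log scale) of each member in the 3 untreated (blue) and 3 nicorandil (red) libraries, replicates 1 to 3 from left to right, with 95% Wilson intervals for counting error. miR-148a-3p lies near 10% and 15%, and the intervals of the other 2 members are wide in the untreated libraries.

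Neither of the 2 relatives passed the test, against 21.5% of the 121 miRNAs tested (26 in all, either direction, limma, Benjamini-Hochberg adjusted p under 0.05). On simulated data this fit called more false changes than the threshold names. The 21.5% and the counts and shares of rises and falls below may therefore be too high. The unadjusted p was 0.205 for miR-148b-3p and 0.458 for miR-152-3p, so neither was under 0.05, and edgeR's quasi-likelihood test and DESeq2 called neither. In the authors' deposited table the log2 fold changes are 1.11 for miR-148a-3p, 1.06 for miR-148b-3p and -0.13 for miR-152-3p. Unadjusted p-values of 0.177 and 0.668 stand beside the relatives in the authors' deposited table. edgeR's exact test on the recovered reads also gave 1.06 for miR-148b-3p, against 0.74 on the log2(signal + 1) scale and 0.85 with a pseudocount of 0.1. For miR-152-3p edgeR gave -0.14, nearer to 0 than the -0.28 on the log2(signal + 1) scale. The cause of these gaps was not tested.

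**Figure D3:**
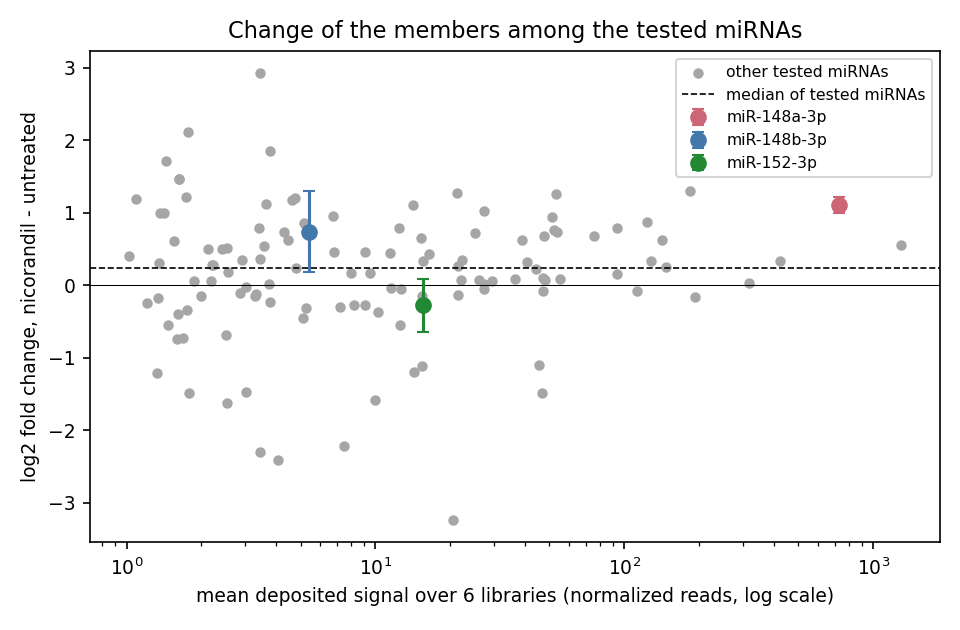
Log2 fold change, nicorandil minus untreated (y axis), against mean signal over the 6 libraries (x axis, normalized reads, log scale) for the 121 tested miRNAs in grey, with the 3 members in colour and their SE as bars. The dashed line is the median of 0.23. miR-148a-3p lies at 1.11 at the right end, where errors are small, and miR-148b-3p and miR-152-3p lie within the cloud.

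The 2 relatives were also compared with each other, since neither was chosen for its change. The log2 ratio of miR-152-3p to miR-148b-3p was 1.92, 2.34 and 1.68 without treatment, and 0.57, 2.44 and -0.11 after nicorandil. It was 1.98 ± 0.33 and 0.96 ± 1.32 (SD, n = 3), a difference of -1.01. The nicorandil libraries spanned the untreated ones, and the two-sided exact permutation p was 0.4, where 0.1 is the smallest that 3 against 3 libraries allow.

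The other products of the same hairpins, the 5p arms, were nearly absent. miR-148a-5p had 1 read, in nicorandil replicate 2, against 7106 reads of miR-148a-3p over all libraries. miR-148b-5p and miR-152-5p had no read in any library, which allows a share of up to 0.136% of the shallowest untreated and up to 0.018% of the deepest nicorandil library. No arm could be tested. The 3p arm therefore stood for essentially all reads of the miR-148a hairpin in both groups.

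In the order of mean signal over the 6 libraries, miR-148a-3p had clear neighbours. miR-143-3p, a mesenchymal and smooth muscle miRNA, was above it in 6 of 6 libraries, at 954 to 1110 without and 1360 to 1660 with nicorandil. miR-423-5p, next below, was at 358 to 391 and 418 to 555, and miR-24-3p at 296 to 349 and 305 to 343. The ranges of these 3 miRNAs did not overlap with that of miR-148a-3p in either group. miR-152-3p lay at position 43. It overlapped with miR-28-3p, miR-92a-3p and miR-149-5p in both groups, and miR-10a-5p, at position 41, was above it in all untreated and below it in all nicorandil libraries. miR-148b-3p lay at position 66 and overlapped in both groups with miR-199a-5p, miR-222-3p and miR-145-3p. Its range lay below that of miR-322-3p in the untreated libraries, at 4.61 to 7.19, and overlapped with it in the nicorandil libraries.

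The miRNAs most alike to miR-148a-3p, by Pearson r of log2(signal + 1) over the 6 libraries, were miR-99a-5p (r = 0.983), miR-145-5p (0.978), miR-125a-5p (0.959), miR-93-5p (0.957) and miR-674-3p (0.953). The 6 libraries share 2 groups and 2 depths, so r mostly reflects the difference between the groups and is a description. miR-99a-5p went from 86.5 ± 2.26 to 160 ± 5.66 and miR-125a-5p from 30.9 ± 3.26 to 75.8 ± 10.1 (SD, n = 3). miR-674-3p, a rodent miRNA, was at 36.4 ± 2.23 and 58.9 ± 1.90. miR-145-5p and miR-93-5p had 0 reads in the untreated libraries and 46 and 24 in the nicorandil libraries. Neither relative was among these 5.

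Other miRNAs with functions known for this family were listed by function, from general knowledge. Of 10 miRNAs reported to target DNA methyltransferases all had a read and 7 were tested. Of these, 1 rose, 1 fell and 5 did not pass. Their median log2 fold change was 0.23, the same as over all tested miRNAs, of which 14.0% rose and 7.44% fell. miR-143-3p, reported to target DNMT3A, rose by 0.55 (SE 0.11, limma adjusted p = 0.00182), but its share of reads overlapped between the groups. miR-126a-3p, an endothelial miRNA, fell by 2.21 on the log2 scale (SE 0.48, limma adjusted p = 0.00316). miR-29a-3p, whose family targets DNMT3A and DNMT3B, was at 20.3 ± 9.49 and 24.2 ± 4.90, and miR-342-3p at 4.19 ± 1.67 and 5.37 ± 2.87 (SD, n = 3).

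Of 13 miRNAs that regulate fat cell formation, listed without regard to whether they promote or inhibit it, 12 had a read and 10 were tested. Of these, 4 rose, none fell and 6 did not pass, where 14.0% of the 121 rose. The median was 0.32, against 0.23 over all tested miRNAs. As a share of reads the sum of this list overlapped between the groups, at 29% to 30.5% without and 28.2% to 33.1% with nicorandil. Besides miR-143-3p the rises were miR-21-5p (0.63, SE 0.16), miR-30d-5p (0.79, SE 0.18) and miR-27a-3p (0.63, SE 0.22, limma adjusted p = 0.0467), the last named after its value was seen. miR-26a-5p, also abundant, was at 53.5 ± 7.21 and 56.8 ± 5.40 (SD, n = 3). Of 10 miRNAs that regulate cholesterol and lipid genes, 6 had a read and 3 were tested, with a median of 0.07. miR-122-5p, the liver miRNA, fell by 1.49 on the log2 scale (SE 0.27, limma adjusted p = 0.000718), and miR-128-3p (0.34, SE 0.17) and miR-27b-3p (0.07, SE 0.27) did not pass. With library totals as the scale 4 miRNAs were called higher in all, against 17, so the rises counted here depend on the scale.

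Markers of several other cell types were lower in the nicorandil libraries, in which miR-148a-3p, a miRNA that liver also expresses, was higher. All 3 liver and gut markers fell (miR-194-5p, miR-192-5p and miR-122-5p), where 7.44% of the 121 tested miRNAs fell, a share to set beside each count of falls here. In this order they had 9, 31 and 101 reads over the untreated libraries, and 4, 59 and 147 over the nicorandil libraries. miR-194-5p passed the filter on mean signal only through the untreated libraries, where it was high (mean 6.22, against 0.682 with nicorandil). The summed signal of these 3 markers ranged from 66.5 to 123 without and from 27.8 to 40.7 with nicorandil, or 1.44% to 2.61% and 0.463% to 0.617% of the reads. The red blood cell markers (3 of 4 listed, 1 lower of 2 tested) summed to 26.3 to 34.0 and 11.2 to 22.2. Of the epithelial markers 6 of 6 had a read, 2 were tested and 1 fell, with sums of 10.1 to 17.3 and 1.52 to 1.85. The fall was that of miR-200b-3p and rests on few reads, 11 without and 4 with nicorandil. Both tested epithelial markers, miR-200b-3p and miR-200a-3p, passed the filter only through the untreated libraries (nicorandil means 0.601 and 0.243). Of the endothelial markers 1 of 2 had a read and fell, miR-126a-3p, with 19 reads without and 13 with nicorandil. The endothelial sums were 9.84 to 14.9 and 1.74 to 2.33, and miR-126a-5p had no read. White blood cell markers summed to 0.71 to 9.85 and 4.27 to 5.46, with miR-150-5p at 0 reads. The neuronal markers miR-124-3p and miR-9a-5p had no read, and the muscle and islet markers had 3 reads each in all. Of 11 mesenchymal markers all had a read and 10 were tested. Of the tested markers, 4 rose, none fell and 6 did not pass (median 0.68), where 14.0% of the 121 rose. Among the rises, miR-21-5p as well as miR-143-3p was already counted for fat cell formation, so the counts of these lists are not independent. The other rises were miR-145-5p and miR-100-5p. miR-145-5p had 0 reads without treatment and 46 with nicorandil, so it passed the filter only through the nicorandil libraries. The summed signal of all 11 mesenchymal markers ranged from 1180 to 1340 without and from 1700 to 2010 with nicorandil, most of it miR-143-3p. As a share of reads the groups overlapped, at 27.3% to 28% and 26.2% to 31.3%, so the difference in the sums depended on the scale. The part of these markers in the difference of miR-148a-3p was not tested.

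**Figure D4:**
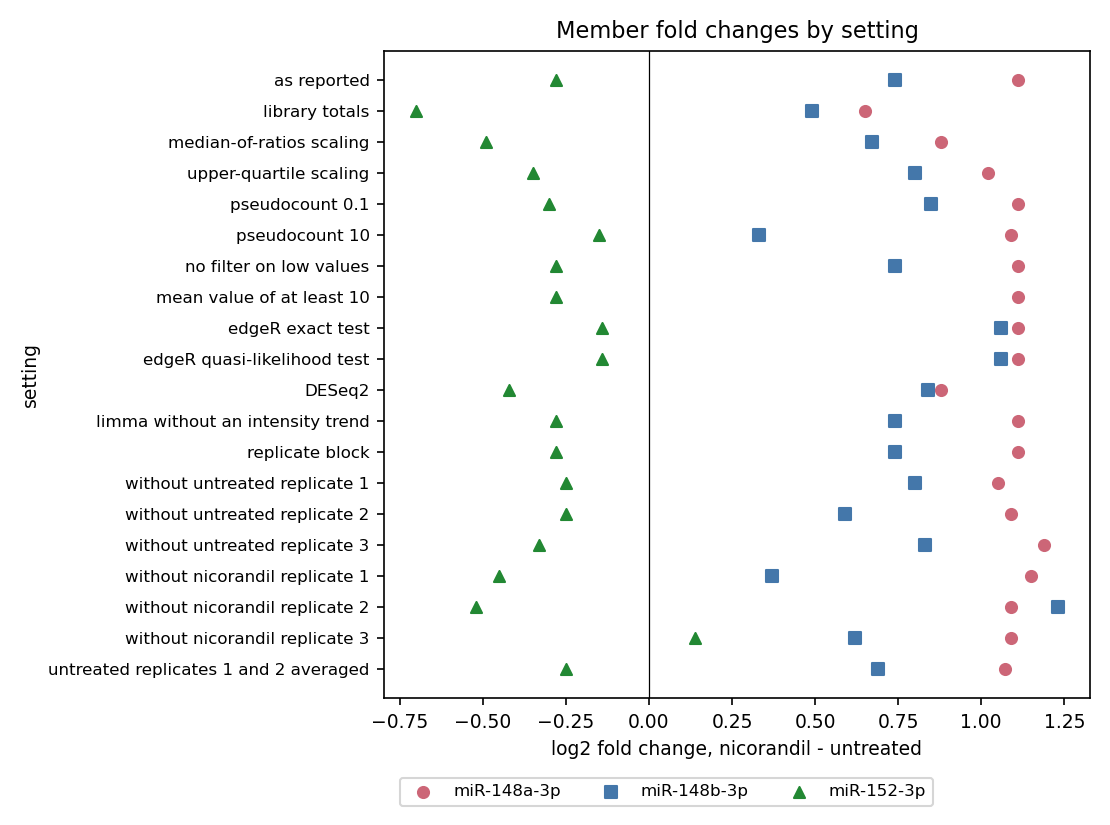
Log2 fold change, nicorandil minus untreated (x axis), of the 3 members under each processing setting (y axis). miR-148a-3p lies between 0.65 and 1.19, miR-148b-3p between 0.33 and 1.23, and miR-152-3p between -0.70 and 0.14, with its 1 positive value without nicorandil replicate 3.

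Across the 19 alternatives miR-148a-3p was higher with nicorandil in each. It was chosen for its rise in these same libraries, so this is a description and no support for the rise. miR-148b-3p was positive in all 18 that gave a value, with limma, edgeR or DESeq2 adjusted p-values of 0.158 to 0.847. miR-152-3p was negative in 18 of 19, with adjusted p-values of 0.326 to 1.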

How the data were processed

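Small RNA of 6 exosome libraries, 3 untreated and 3 nicorandil, was sequenced single-end. FastQC, Bowtie and edgeR are named per the submitters' processing notes, without versions. The genome build and annotation behind the deposited values are not stated in what was used here. The deposited table holds a normalized signal per library, and the authors' log2 fold change and unadjusted p-value, per the file headers. From the values, the deposited signal has the form of edgeR pseudo-counts with a common dispersion of 0.0272. Solved for the reads, this form returned whole numbers for 100% of the 763 miRNAs (tolerance 0.01 read, largest distance 1e-06), and recomputation returned the deposited signal to within 4.8e-07. Where a group has no read, the deposited value is a placeholder near 0.

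limma 3.58.1 (R 4.3.3) with an intensity trend was fitted to log2(signal + 1) of the 121 miRNAs with a mean of at least 1, without covariates, and p-values were Benjamini-Hochberg adjusted over all 121 (threshold 0.05). Tested on simulated data, this fit called more false changes than the threshold names. As alternatives, the recovered reads were scaled in 3 other ways, and further fits used pseudocounts of 0.1 and 10, other filters, limma without a trend, edgeR 4.0.16, DESeq2 1.42.0, a replicate block, each library left out in turn, and untreated replicates 1 and 2 averaged (chosen after seeing the data).

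The members and lists were chosen with earlier results of these data known. Named are the members, their 5p arms, miRNAs with the seed letters and a read, neighbours in the order of mean signal, the 5 most alike, the next 2 by fold change over error, and up to 4 abundant members of each functional list, cell type markers from the marker lists, and miR-27a-3p, which was named after its value was seen. Replicates 1 to 3 share numbers between the groups, and the main fit did not treat these as pairs. The correlations of same-numbered libraries in the closing section are near 0, but with 3 libraries per group they cannot exclude pairing. Counting intervals are 95% Wilson or conditional exact intervals, and a count of 0 allows up to 3 reads.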

Additional observations from a re-analysis of the deposited data

How the results depend on the processing

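The log2 fold change of miR-148a-3p was 0.65 with library totals, and 0.88 with median-of-ratios scaling and in DESeq2, against 1.11, and it ranged from 1.05 to 1.19 without 1 library. miR-152-3p ranged from -0.52 to 0.14 without 1 library and changed sign, to 0.14, without nicorandil replicate 3; the cause was not tested beyond the low value of that library. miR-148b-3p had no value with a mean signal of at least 10, which it does not reach. The 17 miRNAs called higher became 4 with library totals and without an intensity trend, 6 with median-of-ratios and upper-quartile scaling, 5 in DESeq2 (which gave no adjusted p for 21 miRNAs), and 6 to 13 without 1 library, with 6 without nicorandil replicate 2. The 9 called lower became 5 without a trend and with a mean of at least 10, where 55 miRNAs were tested, and 5 to 8 without 1 library, with 5 without untreated replicate 2 or nicorandil replicate 2. With library totals there were 11 lower. The cause was not tested in these cases.

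With the replicate number as a block, miR-148b-3p was at 0.74 (limma adjusted p = 0.422) and miR-152-3p at -0.28 (0.672), with 17 higher and 9 lower in all, so no count moved. Deviations of same-numbered libraries from their group means correlated at 0.01, 0.04 and -0.03, and 1 of 6 libraries correlated best with its own number. The difference in the log2 ratio of miR-152-3p to miR-148b-3p kept its sign in all 8 alternatives, from -1.75 to -0.48. Depth limits both relatives, which rest on 5 and 24 untreated reads.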
